A study of Lupinus micranthus with 18 samples.

Results

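Leaf transcripts of Lupinus micranthus were chosen by their group means as those that stood lower under polyethylene glycol (PEG) than without it in seedlings from Iceland seeds, while seedlings from America seeds showed little change in their mean level. The members were 65 of the 81470 unigenes in the deposited count table. A unigene is a transcript unit put together from reads. The rule worked on CPM (the count as a share of the library's column total, scaled to the same total in every library) and on L, the log2 of a group's mean CPM plus 1. A member had a mean below 200 CPM over all libraries and at least 2 CPM in untreated leaves of each origin. L had to fall by at least 1 at 24 h and at 72 h in Iceland leaves and to move by less than 0.5 at each time in America leaves, and untreated L had to differ by less than 1 between origins. The rule would have taken at most 150 unigenes, ranked by the smaller of the 2 Iceland falls, but only 65 met its limits, so all were taken. These limits used the means of all 6 groups, so the falls in Iceland and the flat means in America are how the members were chosen and are described here without a test.

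The 18 libraries came from leaf RNA of seedlings in 6 groups of 3. Iceland seedlings were left without treatment or kept under PEG drought for 24 h or 72 h, and America seedlings were handled in the same 3 ways. PEG holds water back from plants and is used to mimic drought. Nothing in the labels tells whether the replicates came from different plants, so the p-values rest on how far these samples vary, possibly for technical reasons alone. Each origin had 1 untreated group with no hours given, so PEG cannot be told apart from seedling age or time of harvest. Library totals ran from 9603068 to 12605500 counts, and a count of 0 allowed up to 3 counts, or between 0.238 and 0.312 CPM in a single library, by counting error alone.

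In leaves short of water, plants close their stomata, the hormone abscisic acid rises, and transcripts of growth and photosynthesis commonly fall while protective proteins such as dehydrins accumulate. Seedlings of different seed origin can differ in how far and how fast this programme runs. The table pairs its unigene identifiers with no names, sequences or functions, so roles of the members are not given here, and the leaf label could not be checked against marker genes.

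The summed level of the 65 members followed the rule, lower under PEG in Iceland and near the untreated level in America. Their summed level was 1678 ± 145 CPM in untreated Iceland leaves, 584 ± 42.8 CPM after 24 h and 624 ± 38.4 CPM after 72 h (SD, n = 3 each). In America leaves it was 1273 ± 205 CPM untreated, 1301 ± 100.4 CPM after 24 h and 1166 ± 59.1 CPM after 72 h (SD, n = 3 each). The 6 Iceland PEG libraries lay between 535 and 666 CPM, below each of the other 12 libraries, whose lowest value was 1101 CPM. In bulk leaf RNA, fewer cells of a type and less RNA per cell cannot be told apart.

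**Figure D1:**
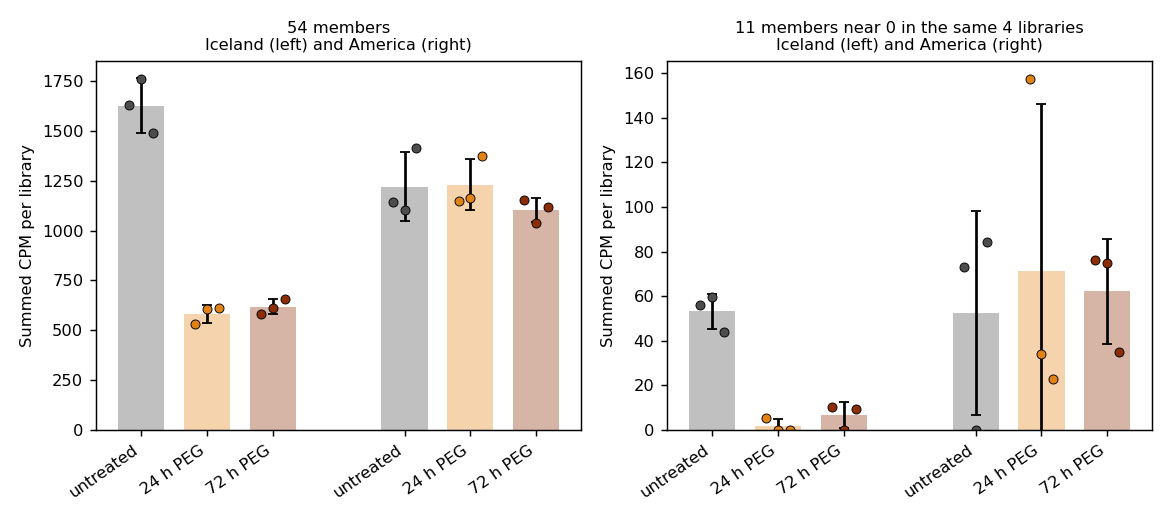
Summed CPM of 54 members (left) and of the other 11 (right) in each library, with bars for group means and error bars for the SD of 3 libraries; in each panel Iceland stands left of America. The 54 members sit between 530 and 657 CPM in the Iceland PEG libraries, and the 11 members reach at most 0.104 CPM in each of 4 libraries; error bars that would pass below 0 are clipped at 0.

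On the scale of the rule, the median member change from untreated leaves was -1.38 at 24 h and -1.32 at 72 h in Iceland, and -0.06 at 24 h and -0.12 at 72 h in America. All 30895 unigenes that passed the filter on low counts, all 65 members among them, had median changes of 0.16 and 0.20 in Iceland and of 0.17 and 0.20 in America on the same scale. The scale therefore placed the bulk of unigenes slightly above 0 under PEG, and relative to it the members' median was -1.54 and -1.52 in Iceland, and -0.23 and -0.32 in America. Scaled by TMM, which sets most unigenes to no change, the members' medians were -1.56 and -1.61 in Iceland, and -0.29 and -0.39 in America. Flat in America thus holds for column totals, and under TMM scaling the America medians lay below 0.

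Most of the members lay close to the limit of the rule. The smaller of the 2 Iceland falls ranged from 1.01 to 2.79 with a median of 1.17, and reached 2 in 4 of 65 members. Just inside the limit were Unigene0051843 at 1.01 (falls of 1.11 at 24 h and 1.01 at 72 h) and Unigene0024386 at 1.01 (1.02 and 1.01). Just outside were Unigene0057485 at 0.99 (0.99 and 1.33) and Unigene0004853 at 0.99 (1.22 and 0.99), which met every other limit. With the origins exchanged, the same rule found 11 unigenes, and with TMM-scaled CPM it found 93 as given and 19 exchanged.

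**Figure D2:**
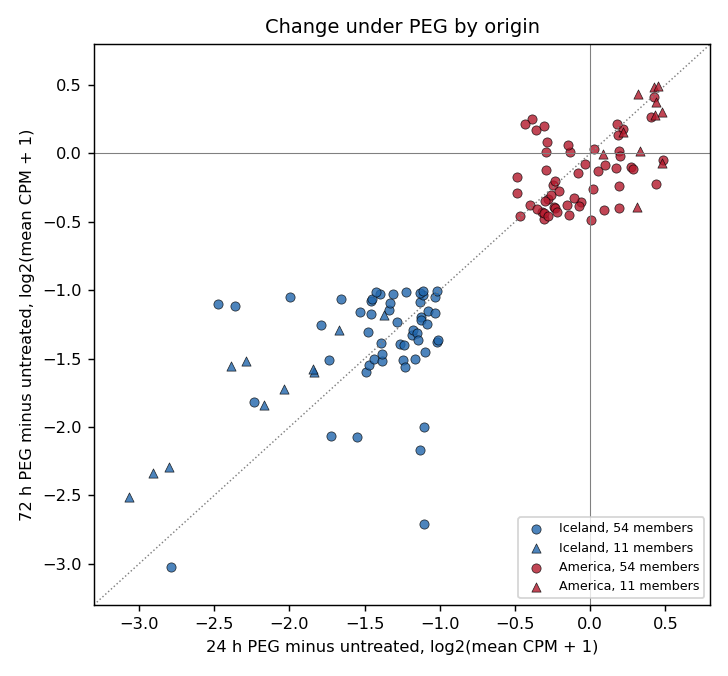
Change in L at 24 h (x axis) and 72 h (y axis) against untreated leaves for each of the 65 members, Iceland in blue and America in red, with triangles for the 11 members that share a library pattern; the dotted line marks equal change. The gap between the clouds is set by the rule, and the Iceland points lie on either side of the dotted line.

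By edgeR's quasi-likelihood test over all 30895 unigenes, 62 members passed as lower after 24 h in Iceland leaves, beside 20.6% of all unigenes tested, and 58 after 72 h, beside 23.0%. In America leaves 3 members passed as lower after 24 h, beside 15.1%, and 11 after 72 h, beside 18.0%. None passed as higher in any of these 4 comparisons, beside 19.7% and 23.4% of all unigenes tested in Iceland and 16.0% and 18.4% in America at 24 h and 72 h, and 0 did so at an unadjusted p under 0.05, by DESeq2 or by limma-voom. The test of the difference between the origins' responses called 1 member more negative in Iceland at 24 h, beside 0.375% of all unigenes tested, and 1 at 72 h, beside 0.278%. The counts at 24 h and 72 h were 19 and 10 with DESeq2, 11 and 4 with no filter on low counts, and 12 and 10 without untreated Iceland replicate 3. At 24 h the count was 3 without Iceland 24 h replicate 1 and 2 without untreated America replicate 1, and at 72 h it ranged from 0 to 3 without 1 of the other libraries. These counts follow from the rule and carry no separate weight. The 11 America calls at 72 h became 4 without America 72 h replicate 2 or untreated America replicate 3, 5 without America 72 h replicate 1, 6 without untreated America replicate 2 and 17 without untreated Iceland replicate 3. The 3 calls at 24 h were Unigene0031422, Unigene0073048 and Unigene0081376, and their number became 0 without America 24 h replicate 3, 6 without untreated Iceland replicate 2 and 8 without untreated Iceland replicate 3.

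Some members shared a library pattern, seen after their values were known. In 11 members every count was 3 or fewer in 4 libraries, namely Iceland 24 h replicates 2 and 3, Iceland 72 h replicate 2 and untreated America replicate 2. Summed over the 11 members, each of these 4 libraries held 1 count. The 14 other libraries held between 57 and 1709 counts of the same 11. Among all unigenes tested, 169, or 0.547%, were at or under 3 counts in the same 4 libraries with a mean of at least 1 CPM in the other 14.

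In 3 of the 6 groups these 11 members were near 0 in some libraries and higher in the others. The lowest of those others was Iceland 24 h replicate 1, where their median was 0.370 CPM and a count of 0 allowed up to 0.277 CPM. Their summed level was 5.27, 0.0871 and 0.104 CPM in the Iceland 24 h libraries, 10.3, 0.102 and 9.64 CPM at 72 h, and 55.8, 59.5 and 44.1 CPM in untreated Iceland leaves. In America leaves it was 73.2, 0.094 and 84.2 CPM untreated, 157, 33.9 and 22.7 CPM after 24 h, and 76.4, 74.8 and 35.1 CPM after 72 h. Untreated America replicate 2 was therefore as low as the lowest Iceland PEG libraries, although its group mean entered the rule as high. America 24 h replicate 1 was the highest America library for each of the 11.

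Unigene0074285, second by rank and 649 bases long, shows the pattern. It stood at 8.66, 12.01 and 7.61 CPM in untreated Iceland leaves, at 0.739, 0 and 0 CPM after 24 h, and at 1.31, 0 and 1.17 CPM after 72 h. Its America libraries stood at 8.49, 0 and 13.0 CPM untreated, at 24.97, 2.46 and 2.71 CPM after 24 h, and at 12.2, 11.04 and 5.63 CPM after 72 h. Its untreated Iceland libraries lay above all Iceland PEG libraries, while its America libraries spanned 4.70 on the log2(CPM + 1) scale. It had the widest gap of all members between the lowest untreated and the highest PEG Iceland library, and Unigene0073974, also among the 11, had the next.

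Unigene0073974 stood at 6.64, 7.40 and 7.71 CPM in untreated Iceland leaves, at 0.554, 0 and 0 CPM after 24 h, and at 0.787, 0.102 and 1.17 CPM after 72 h. America leaves held it at 8.49, 0 and 7.89 CPM untreated, at 18.1, 3.77 and 2.13 CPM after 24 h, and at 8.99, 9.22 and 2.73 CPM after 72 h. The same libraries were high and low as for Unigene0074285. Across the 18 libraries, log2(CPM + 1) of any pair of the 11 members correlated at r = 0.92 to 0.99, as a description over libraries that share depth and groups, and each member correlated at 0.97 to 0.99 with the mean profile of the 11, which includes it. The 4 low libraries that defined the 11 are part of these values and raise them. Over the 14 other libraries, pairs of the 11 correlated at 0.83 to 0.99, the 11 correlated with their mean profile at 0.93 to 0.98, and the 54 others at 0.13 to 0.83. The limit of 3 counts is not a gap: Unigene0041541, named after its values were seen and at 0.87 over all 18 libraries, had 4, 3, 0 and 1 counts in untreated America replicate 2, Iceland 24 h replicates 2 and 3 and Iceland 72 h replicate 2. Its counts in Iceland 24 h replicate 1 and Iceland 72 h replicates 1 and 3 were 3, 1 and 1. It was thus at 3 counts or fewer in every Iceland PEG library, unlike each of the 11.

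The 11 members stood high in the ranking and were scarce and short. They took 8 of the first 11 ranks, with a median smaller fall of 1.60 beside 1.13 in the 54 others. Their mean level ran from 1.68 to 6.22 CPM, and their median length, from the authors' counts and FPKM, was 801 bases beside 1406 bases in the 54 others and 1362 bases in all unigenes tested. In Iceland 10 of the 11 passed as lower at 24 h and 7 at 72 h by edgeR, against 52 and 51 of the 54. The shares of all unigenes tested were 20.6% and 23.0%, and the rule's limits on the means bear on these calls. When group medians replaced group means in the rule, none of the 11 was found. What sets the 4 libraries apart was not tested.

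**Figure D3:**
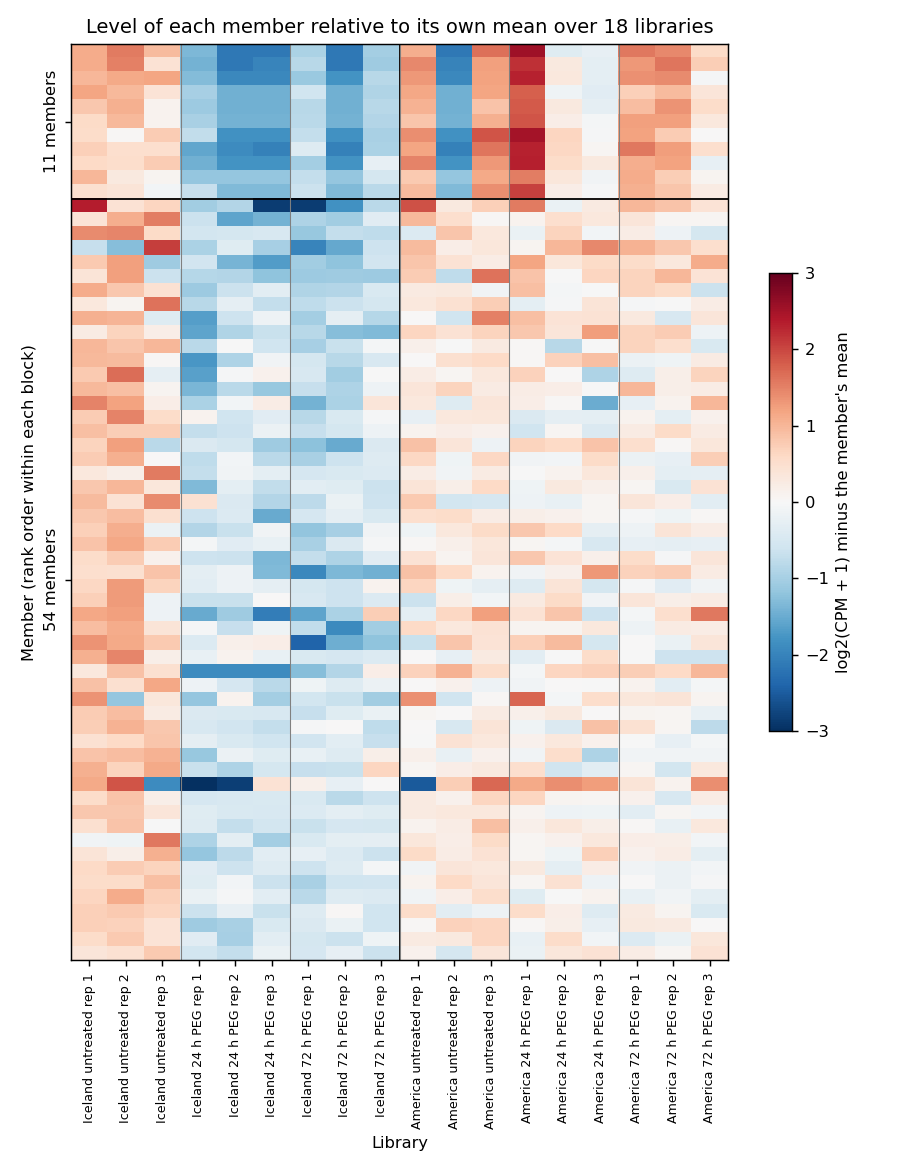
Level of each of the 65 members (rows, 11 above the black line and 54 below, each block in rank order) in each of 18 libraries (columns, Iceland left and America right) as log2(CPM + 1) minus the member's own mean. In the upper block 4 columns are uniformly low, at a summed 0.0871 to 0.104 CPM, 1 of them untreated America replicate 2. Its other Iceland PEG columns sum to 5.27 to 10.3 CPM, beside 44.1 to 59.5 CPM in untreated Iceland. The lower block is lower across the 6 Iceland PEG columns too.

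The other 54 members carried most of the summed level. It was 1625 ± 137 CPM in untreated Iceland leaves, 582 ± 45.8 CPM after 24 h and 617 ± 37.8 CPM after 72 h, and in America 1221 ± 171 CPM untreated, 1230 ± 127 CPM after 24 h and 1103 ± 59.3 CPM after 72 h (SD, n = 3 each). Their median change was -1.27 at 24 h and -1.27 at 72 h in Iceland, and -0.15 and -0.21 in America. Without the 11, the America medians thus lay further below 0. The mean level of the 54 ran from 1.70 to 145.5 CPM with a median of 9.03, beside 5.82 in all unigenes tested.

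The groups overlapped little in Iceland. The 3 untreated libraries lay above the 3 libraries of 24 h in 54 of the 65 members, beside 18.1% of all unigenes tested, and above those of 72 h in 55, beside 19.5%. All 3 untreated libraries lay above all 6 PEG libraries in 53 of the 65 members, beside 13.9% of all unigenes tested. This held for 11 of the 11 and for 42 of the 54, and the rule's limits on the means bear on it. In 11 members, all among the 54, the 3 untreated Iceland and all 9 America libraries lay above the 6 Iceland PEG libraries, beside 1.08% of all tested. In America no member had its 24 h libraries all above the untreated ones, beside 31.9% of all tested, and 6 had them all below, beside 15.3%. At 72 h the numbers were 2 above, beside 35.6%, and 7 below, beside 17.1%. The rule's limit on the America means bears on these counts as well.

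A flat mean in America did not always mean flat libraries. The 9 America libraries of a member spanned from 0.45 to 4.70 on the log2(CPM + 1) scale with a median of 1.16, beside 1.20 in all unigenes tested. The span was under 1 in 21 members, all among the 54, and over 2 in 18, of which 11 were the set with the shared library pattern. Unigene0024596, the second most abundant member, was the widest of the 54. It stood at 158, 265 and 18.5 CPM in untreated Iceland leaves, at 2.68, 9.15 and 96.3 CPM after 24 h, and at 79.4, 60.3 and 72.2 CPM after 72 h. In America it stood at 11.503, 119.9 and 238 CPM untreated, at 158, 189 and 172 CPM after 24 h, and at 93.1, 76.8 and 188 CPM after 72 h. Its untreated and PEG libraries overlapped in each origin.

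Unigene0046109 was the most abundant member. It stood at 224, 275 and 235 CPM in untreated Iceland leaves, at 95.3, 88.9 and 80.6 CPM after 24 h, and at 130.2, 136 and 78.8 CPM after 72 h. Its America libraries stood at 135, 95.9 and 176 CPM untreated, at 122, 99.0 and 247 CPM after 24 h, and at 185, 139.5 and 76.8 CPM after 72 h. Its untreated Iceland libraries lay above all 6 Iceland PEG libraries, the 24 h and 72 h libraries overlapped, and so did the America groups. The first by rank, Unigene0056214, stood at 152, 39.3 and 45.6 CPM in untreated Iceland leaves, at 13.5, 15.2 and 3.12 CPM after 24 h, and at 3.15, 7.47 and 15.9 CPM after 72 h. America leaves held it at 110.5, 35.6 and 48.0 CPM untreated, at 87.1, 24.9 and 34.7 CPM after 24 h, and at 58.0, 52.7 and 38.4 CPM after 72 h. Every untreated Iceland library was above every Iceland PEG library, with replicate 1 far above the other untreated ones.

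Single untreated Iceland libraries raised some group means. In 2 members more than 66.7% of the untreated Iceland CPM came from 1 library. Unigene0060054 stood at 21.4, 14.02 and 152 CPM there, with 81.1% in replicate 3, at 17.7, 27.0 and 17.2 CPM after 24 h and at 8.22, 11.47 and 22.6 CPM after 72 h. Untreated replicates 1 and 2 of this unigene lay within the range of the PEG libraries. Unigene0019859 stood at 4.71, 0 and 1.85 CPM untreated, at 0, 1.39 and 0.104 CPM after 24 h and at 0.524, 0.409 and 0.0901 CPM after 72 h. Its untreated libraries overlapped those under PEG. Untreated Iceland replicate 3, whose TMM factor of 0.978 stood apart from the 0.830 and 0.821 of replicates 1 and 2, was the lowest of the 3 in 38 of the 65 members and the highest in 17. In 9 members it lay within or below the range of the Iceland PEG libraries. Over all unigenes tested, the median log2(CPM + 1) was 2.63 in replicate 3, beside 2.45 and 2.41 in replicates 1 and 2. No share of all unigenes tested stands beside these counts of members, so they are not read as particular to the members.

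Members were also chosen from 17 libraries and read in the library left out. One side of each such difference is still the group means that chose the members, so its size is partly fixed by the choice and is given as a description. For Iceland PEG libraries the median level in the library left out was below L of untreated Iceland leaves by between 1.07 and 1.5. Between 60.9% and 82.8% of the members chosen were at least 1 lower there, beside 9.72% to 13.0% of all unigenes tested.

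For untreated Iceland replicates 1 and 2, the library left out stood 1.17 and 1.26 above the mean of the PEG values. Of the members chosen, 67.6% and 63.0% were at least 1 higher there, beside 10.96% and 11.2% of all unigenes tested. Untreated Iceland replicate 3 stood 0.71 above, against 1.40 in the libraries that chose them, and 35.3% were at least 1 higher, beside 8.45%. In America, 45.1% to 67.3% of the members chosen lay within 0.5 in the library left out, beside 45.2% to 54.3% of all unigenes tested. Library by library, the members' share was below that of all unigenes tested in untreated America replicate 2, at 45.1% beside 47.7%. It was also below in America 24 h replicate 1, at 47.6% beside 52.9%. In every other America library it was above. Those shares ran from 48.5%, beside 46.001%, in untreated America replicate 3 to 67.3%, beside 54.3%, in America 24 h replicate 2. The choice of members bears on these shares too.

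Which unigenes made the list depended on single libraries. Between 38 and 64 of the 65 were found again when 1 library was left out. The fewest, 38, were found without untreated America replicate 1 and without untreated Iceland replicate 2. With TMM-scaled CPM 33 were found again, with group medians 27, with a pseudocount of 2 in L 41, and with a pseudocount of 0.5 54. Only 4 of the 65 were found in all 22 of these lists, and none of them was among the 11.

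**Figure D4:**
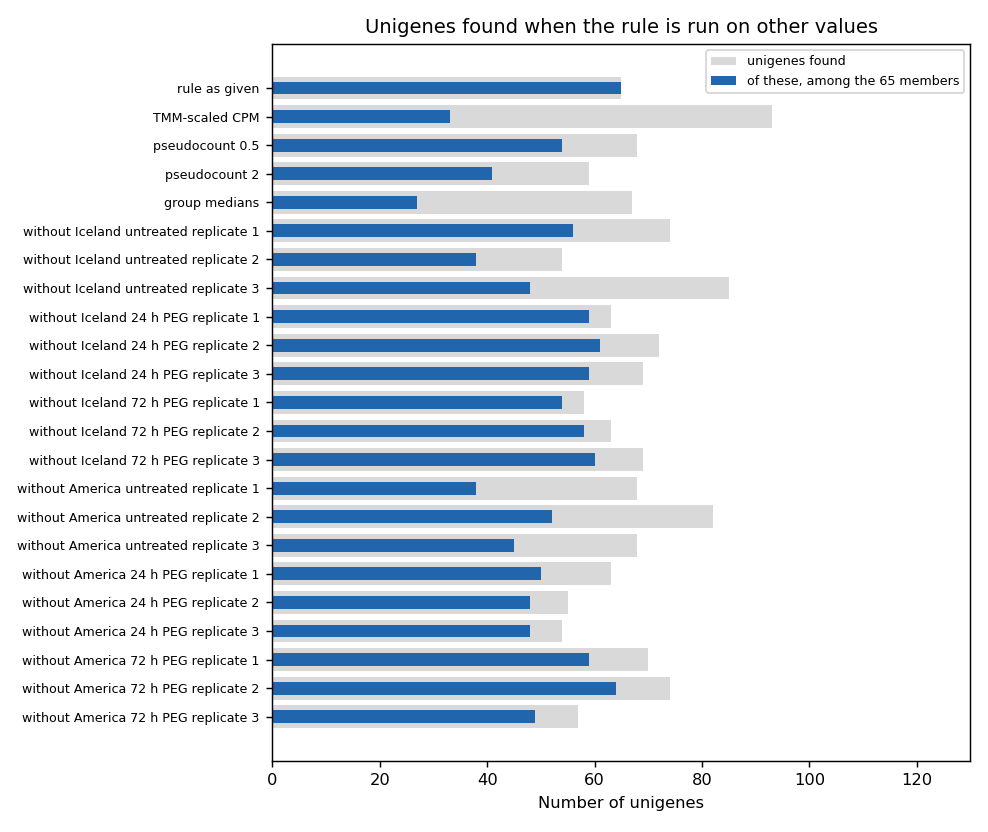
Number of unigenes the rule finds under each setting (grey) and how many of them are among the 65 members (blue), for 4 other settings and for each library left out. The blue bars range from 27 with group medians to 64 without America 72 h replicate 2.

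The 4 members found in every list, named here after their values were seen, had all untreated Iceland libraries above all Iceland PEG libraries in 3 of 4 cases, beside 53 of the 65 members and 13.9% of all unigenes tested, and the rule's limit on the Iceland fall bears on this too. Unigene0038661, 681 bases long, stood at 9.42, 13.1 and 9.17 CPM in untreated Iceland leaves, at 1.94, 3.75 and 4.58 CPM after 24 h, and at 3.93, 2.66 and 2.52 CPM after 72 h. In America it stood at 12.7, 11.004 and 12.9 CPM untreated, at 14.46, 10.4 and 20.03 CPM after 24 h, and at 13.1, 14.02 and 6.91 CPM after 72 h. All its America libraries lay above all its Iceland PEG libraries.

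Unigene0042375 stood at 6.22, 4.80 and 3.61 CPM in untreated Iceland leaves, at 0.554, 1.13 and 1.67 CPM after 24 h, and at 0.787, 0.819 and 1.44 CPM after 72 h. Its America libraries stood at 3.01, 3.10 and 2.11 CPM untreated, at 5.25, 2.21 and 2.32 CPM after 24 h, and at 4.28, 3.94 and 1.13 CPM after 72 h. America 72 h replicate 3 thus lay within the range of the Iceland PEG libraries.

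Unigene0000794 stood at 6.90, 6.53 and 3.22 CPM in untreated Iceland leaves, at 0.554, 1.31 and 0.833 CPM after 24 h, and at 1.49, 1.13 and 2.61 CPM after 72 h. America leaves held it at 4.13, 5.36 and 3.76 CPM untreated, at 3.69, 3.602 and 3.0003 CPM after 24 h, and at 6.97, 3.55 and 3.70 CPM after 72 h. Every America library was above every Iceland PEG library.

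Unigene0078288 stood at 10.3, 14.3 and 2.15 CPM in untreated Iceland leaves, at 3.42, 1.48 and 1.04 CPM after 24 h, and at 2.19, 1.84 and 3.42 CPM after 72 h. In America it stood at 10.7, 7.90 and 6.69 CPM untreated, at 13.8, 7.37 and 8.71 CPM after 24 h, and at 8.57, 7.202 and 13.2 CPM after 72 h. Here untreated Iceland replicate 3 lay among the PEG libraries.

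**Figure D5:**
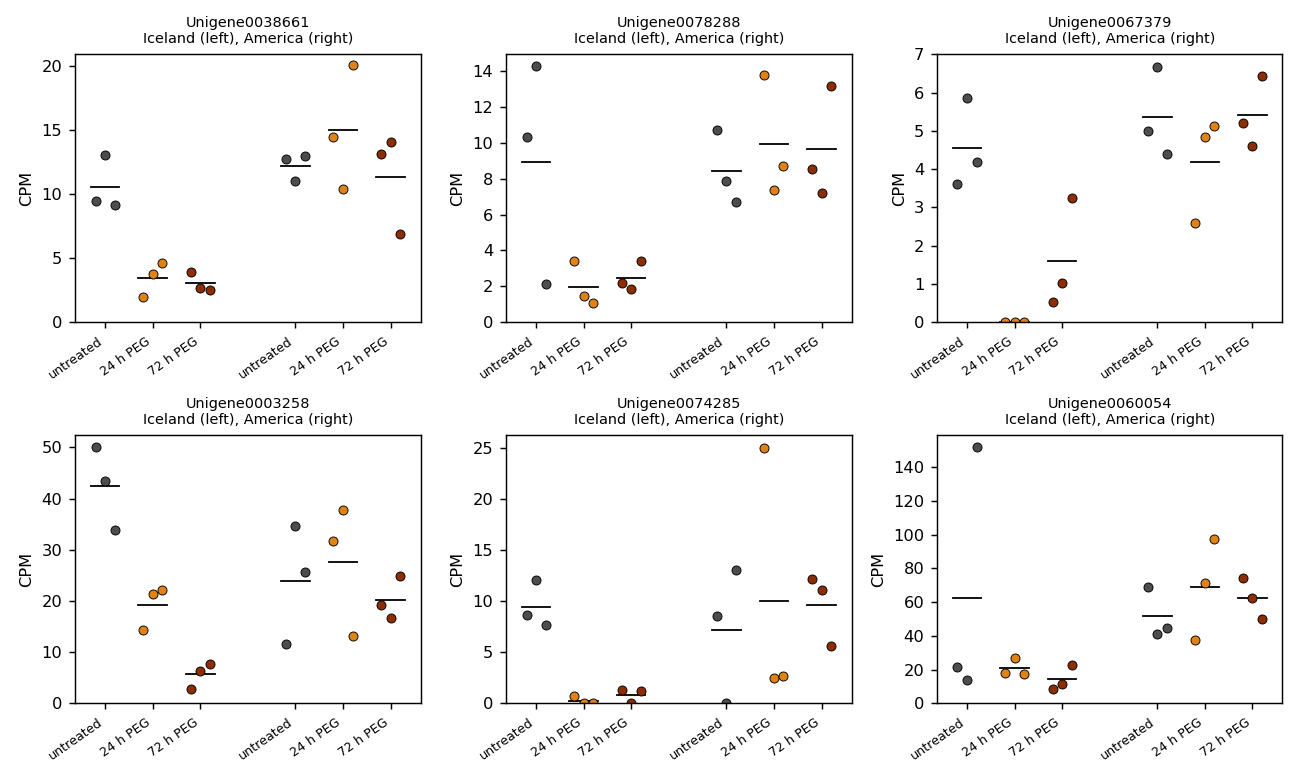
CPM of 6 members in every library, Iceland left and America right in each panel, with a line at each group mean. Unigene0067379 has 0 counts in all 3 Iceland 24 h libraries, Unigene0003258 is lower at 72 h than at 24 h in Iceland, and the untreated Iceland mean of Unigene0060054 rests on replicate 3 at 152 CPM.

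The rule set no limit on the difference between 72 h and 24 h in Iceland. In 36 members the Iceland mean was lower at 24 h and in 29 at 72 h, and all 11 with the shared library pattern were among the 36. The 11 were set apart by low counts in more Iceland libraries of 24 h than of 72 h. How they were picked therefore bears on their place among the 36. In the Iceland PEG libraries outside the 4, their summed level was 5.27 CPM in 24 h replicate 1. It was 10.3 and 9.64 CPM in 72 h replicates 1 and 3. How far the picking accounts for the order was not tested. Among the 54 other members the Iceland mean was lower at 24 h in 25 and at 72 h in 29. The median difference, 72 h minus 24 h, was 0.05 in L, beside 0.05 in all unigenes tested. By edgeR 1 member was higher at 72 h, beside 2.0% of all unigenes tested, and 1 was lower, beside 1.72%, which is a share near that of all unigenes. In America, where the rule bounded this difference, edgeR called 0 members, beside 1.41%, with 1 at an unadjusted p under 0.05, 1 by DESeq2 (which gave 4 members no adjusted p) and 0 by limma-voom. The difference between the origins in this change was called in 0 members by edgeR, beside 0.0809%, with 4 at an unadjusted p under 0.05, 1 by DESeq2 and 0 by limma-voom.

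The member higher at 72 h was Unigene0067379, 1730 bases long. It stood at 3.62, 5.86 and 4.20 CPM in untreated Iceland leaves, had 0 counts in all 3 libraries after 24 h, and stood at 0.524, 1.02 and 3.24 CPM after 72 h. Against the limit of 3 counts over the 24 h group it was at least 16.98-fold higher at 72 h (edgeR adjusted p = 0.00594), and the call held in 18 of 18 refits that left out 1 library. The bound rests on Iceland 72 h replicate 3, without which it was 8.23-fold. At 24 h it was at least 48.5-fold lower than in untreated Iceland leaves. Its America libraries stood at 4.998, 6.68 and 4.40 CPM untreated, at 2.58, 4.83 and 5.13 CPM after 24 h, and at 5.21, 4.61 and 6.43 CPM after 72 h. Its America groups overlapped, while the 24 h Iceland libraries lay below all others.

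The member lower at 72 h was Unigene0003258. It stood at 50.04, 43.4 and 33.8 CPM in untreated Iceland leaves, at 14.2, 21.3 and 22.2 CPM after 24 h, and at 2.80, 6.35 and 7.75 CPM after 72 h, so the 3 Iceland groups did not overlap. The log2 fold change of 72 h against 24 h was -1.83 ± 0.45 SE (edgeR adjusted p = 0.0383), and the call held in 10 of 18 refits. It was lost without Iceland 24 h replicate 1, 2 or 3, Iceland 72 h replicate 1 or 2, untreated Iceland replicate 1, or America 72 h replicate 1 or 2, with edgeR adjusted p up to 0.160, and the limma-voom adjusted p was 0.0805. America leaves held it at 11.6, 34.7 and 25.6 CPM untreated, at 31.8, 37.8 and 13.1 CPM after 24 h, and at 19.1, 16.6 and 24.8 CPM after 72 h. These America groups overlapped. The next lowest, Unigene0026679, had a log2 fold change of -1.39 ± 0.45 SE and did not pass (edgeR adjusted p = 0.0969), while DESeq2 called it with an adjusted p of 0.0315. The next highest after Unigene0067379 was Unigene0016432, among the 11, which had 0 counts in all 3 Iceland 24 h libraries and 0.35, 0 and 0.54 CPM at 72 h, and did not pass (edgeR adjusted p = 0.267).

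In untreated leaves the members tended to stand higher in Iceland than in America, within the limit of 1 that the rule allowed. The Iceland mean was above the America mean in 57 of 65 members, and the median difference was 0.32 in L, beside 0 in all unigenes tested. Among the 54 it was above in 51, and among the 11 in 6. A high untreated Iceland mean helps a unigene meet the rule, so the direction is not independent of the choice. By edgeR 2 members were higher in untreated Iceland than in untreated America leaves, beside 2.74% of all unigenes tested, and 0 were lower, beside 2.34%, with 0 at an unadjusted p under 0.05 and 0 by DESeq2 or limma-voom. The calls numbered 0 without any 1 of the 3 untreated America libraries or without untreated Iceland replicate 1, 1 without untreated Iceland replicate 2 and 8 without untreated Iceland replicate 3.

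These 2 were Unigene0022888 and Unigene0028036. Unigene0022888 stood at 10.3, 7.59 and 12.7 CPM in untreated Iceland leaves, against 5.24, 5.74 and 4.49 CPM in untreated America leaves, a log2 fold change of 1.01 ± 0.23 SE, and it kept the call in 14 of 18 refits that left out 1 library. Under PEG it stood at 4.53, 3.31 and 2.499 CPM after 24 h and 4.63, 3.69 and 4.41 CPM after 72 h in Iceland. It had the narrowest span of the members in America, 0.45 on the log2(CPM + 1) scale. Unigene0028036 stood at 22.6, 28.3 and 21.2 CPM in untreated Iceland leaves, against 12.3, 13.4 and 15.4 CPM in untreated America leaves (log2 fold change 0.86 ± 0.23 SE), with the call kept in 4 of 18 refits. The 2 untreated groups did not overlap for either unigene.

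At the ends of this difference stood members of the 54 and of the 11. Unigene0025885 had the highest difference, 6.90, 9.32 and 3.22 CPM in untreated Iceland leaves against 2.78, 2.16 and 3.48 CPM in untreated America leaves, and Unigene0064081 the next, 5.47, 3.55 and 8.003 CPM against 4.76, 1.32 and 1.38 CPM. The untreated groups overlapped in each. The lowest were Unigene0072605 and Unigene0040313, both among the 11 with the shared library pattern. Unigene0072605 stood at 4.20, 2.59 and 4.98 CPM in untreated Iceland leaves, against 8.25, 0 and 12.01 CPM in untreated America leaves.

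The members as a whole had a median length of 1273 bases, with quartiles of 747 and 1819, beside a median of 1362 bases and quartiles of 821 and 2128 in all unigenes tested. Their median level was 6.22 CPM over the 18 libraries, beside 5.82, and 39 of the 65 were under 10 CPM while 4 were over 50.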

How the data were processed

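Leaf RNA of 18 Lupinus micranthus libraries was sequenced. RSEM 1.3.1, cutadapt 1.18 and bcl2fastq 2.0.1 are listed, with no roles, per the submitters' processing notes. Assembler, annotation and strand were not given in the sources used here. The authors deposited, per the file headers, a count and an FPKM column for each library. The deposited counts are whole numbers that may have been rounded from RSEM estimates, and near-identical unigenes may share reads. The authors' FPKM served only to give unigene length, from the count, the FPKM and the library total.

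The members, lists and naming rule were chosen with earlier results of these data known. Counts were kept by filterByExpr and scaled by TMM, and 1 edgeR 4.0.16 quasi-likelihood fit (R 4.3.3) of 6 group means gave 10 comparisons, with Benjamini-Hochberg adjustment over 30895 unigenes and a threshold of 0.05. The fits were tried on simulated counts with a single spread for all unigenes, which does not show how they perform on these libraries. No 2 replicates agreed within sampling noise on average: over 18 pairs, the chi-square averaged over unigenes was 6.76 to 80.3. Batches are not in the labels. The alternatives were DESeq2 1.42.0 size factors and its Wald test, limma-voom (limma 3.58.1), no filter, only the groups compared, a replicate block, other forms of the rule, and leaving out each library, with the filter applied anew. Values without the 11 members sharing a library pattern, the exchange of origins, correlations over 14 libraries and the bound of Unigene0067379 without single libraries were added after seeing the data. Named unigenes were the first and last by rank, those just outside, and the extremes of abundance, of 72 h against 24 h, of the gap between Iceland groups, of the share in 1 untreated Iceland library and of the untreated difference, at most 2 per direction; others named are said to have been chosen after their values were seen, or are the calls of a count of 5 or fewer.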

Additional observations from a re-analysis of the deposited data

Results flagged for a closer look

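EdgeR's test of the difference between the 2 origins' responses was passed by 1 member at 24 h and 1 at 72 h, beside 0.375% and 0.278% of all unigenes tested as more negative in Iceland. The rule used these group means, so the calls describe the choice of members. At 24 h it was Unigene0067379, called in 18 of 18 refits that left out 1 library, with 0 counts in every Iceland 24 h library. At 72 h it was Unigene0031422, whose log2 difference was -1.51 ± 0.29 SE, called in 9 of 18 refits and not by limma-voom. It stood at 32.5, 28.6 and 28.8 CPM in untreated Iceland leaves, at 9.79, 10.5 and 14.8 CPM after 24 h and at 9.96, 11.47 and 15.04 CPM after 72 h, and in America at 18.2, 19.5 and 18.4 CPM untreated, at 10.8, 17.7 and 12.2 CPM after 24 h and at 19.99, 25.5 and 20.02 CPM after 72 h. Members that did not pass are not shown to respond alike in the 2 origins.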

How the results depend on the processing

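Of the 65 members, 33 were found again with TMM-scaled CPM, 41 with a pseudocount of 2 and 27 with group medians. Without 1 library the number was 38 to 64. With the origins exchanged it could only be 0, because the exchanged rule asks for little change in Iceland, where every member fell. The median change in Iceland was -1.56 at 24 h and -1.61 at 72 h with TMM scaling, -1.57 at 72 h with DESeq2 size factors and -1.16 at 24 h with a pseudocount of 2. In America at 72 h it was -0.39 with TMM scaling and -0.39 with size factors. Calls in America at 24 h numbered 5 with DESeq2, with only the groups compared and with the replicate block, and 0 to 8 without 1 library. At 72 h they ranged from 4 to 17. Differences of responses at 24 h were called in 11 members with no filter and 19 with DESeq2, and in 1 to 12 without 1 library. At 72 h they were called in 4 with no filter, 10 with DESeq2, 0 with limma-voom, 2 with only the groups compared, and 0 to 10 without 1 library. The highest counts, 12 and 10, came without untreated Iceland replicate 3. For Iceland 72 h against 24 h, calls numbered 4 with DESeq2, 1 with limma-voom, 1 with only the groups compared, and 1 to 3 without 1 library. For America 72 h against 24 h DESeq2 called 1. The difference in that change was called in 1 with no filter, in 1 with DESeq2, and in 0 to 1 without 1 library. For untreated leaves, calls numbered 0 with no filter, 5 with DESeq2, 0 with only the groups compared, 1 with the replicate block, and 0 to 8 without 1 library, the 8 again without untreated Iceland replicate 3. The replicate block moved no other count by over 1.5 times. The labels do not say whether same-numbered libraries of different groups were paired. Their deviations correlated at -0.15 to 0.17 over 45 pairs, beside -0.15 to 0.15 over 90 pairs of unlike number. Of 18 libraries, 6 were closest to their own number. With 3 libraries per group, these values cannot exclude a pairing. The cause of the shifts in the counts of calls was not tested. Without the 11 members of the shared library pattern, no count of calls moved by over 1.5 times. Members under 10 CPM rest on few reads per library, which limits their precision.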

Other observations

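The library pattern of the 11 members was not limited to them. The 169 unigenes at or under 3 counts in the same 4 libraries held 37.6, 3.75 and 1.87 CPM together in the Iceland 24 h libraries, 66.9, 3.38 and 71.6 CPM in the 72 h libraries and 539, 272 and 221 CPM in the untreated Iceland libraries. In America they held 324, 3.76 and 701 CPM untreated, 951, 289.9 and 475 CPM after 24 h, and 703, 762 and 471 CPM after 72 h. Those 4 libraries are low by the way the 169 were chosen. Their median length was 971 bases. Over the 18 libraries, 43 of the 30895 unigenes tested, the 11 members among them, correlated above 0.95 with the mean profile of the 11, and 92 above 0.9.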
